A study of Homo sapiens with 74 samples.

Results

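The results concern 10 regulators of red cell development: GATA1, GATA2, TAL1, KLF1, LMO2, LDB1, NFE2, ZFPM1, GFI1B and CBFA2T3. Members were taken from a list of gene symbols with no threshold on a measured value, but the list was drawn up with earlier results of these data known, so their share of calls is a description. All 10 were present in both RNA-seq count tables, out of 28131 genes in each. Both tables come from human leukaemia cell lines in which the DOT1L complex was perturbed. DOT1L is the methyltransferase of a lysine in the core of histone H3, a mark of transcribed gene bodies, and ENL, encoded by MLLT1, is a chromatin-reading protein found in complexes with DOT1L. K562 is a chronic myeloid leukaemia line with erythroid features, and HEL is an erythroleukaemia line with erythroid and megakaryocyte features.

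The 5 groups were K562 control cells labelled wild type, K562 cells labelled DOT1L-/-, K562 cells labelled ENL-/-, HEL control cells, and HEL cells with a DOT1L knockdown. The knockouts are called DOT1L KO and ENL KO from here on. The K562 groups held 3 deposited samples each and the HEL groups 2 each. The counts of K562 control samples 2 and 3 were identical in all 28131 genes, so they were counted as 1 library, which left 2 control libraries. The labels do not give the knockdown method, nor whether a knockout was 1 clone, nor whether replicates were separate cultures, so p-values measure only the spread between these samples, which may be technical. The labels name a sequencing lane for the K562 control and DOT1L KO samples and none for the ENL KO samples, and a lane or run effect cannot be told apart from the ENL KO.

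GATA1 and GATA2 are zinc-finger factors that bind the same DNA motif, and in red cell development GATA1 takes over sites held by GATA2 in the progenitor, an exchange that goes with silencing of GATA2 itself. On erythroid genes GATA1 sits in a complex with TAL1, a helix-loop-helix factor that binds E-boxes, bridged by LMO2 and LDB1, and this complex can hold the corepressor CBFA2T3 (also called ETO2). KLF1 and NFE2 activate globin and other red cell genes, ZFPM1 (also called FOG1) is the cofactor that GATA1 needs for much of its activity, and GFI1B is a repressor that recruits histone demethylase and deacetylase complexes.

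The promoters of the GATA factors, of TAL1 and of KLF1 are shown because both GATA and KLF motifs matter in this network. They come from RefSeq on GRCh38.p14, in which 8 of the 10 members were matched. LMO2 and NFE2 were not. Each is read 5′ to 3′ on the gene's own strand. In the KLF1 and TAL1 stretches, which run from 120 to 21 bases before the start, capitals mark the GATA motif, AGATAA or TGATAA on either strand. In the GATA1 stretch, from 150 to 81 bases before the start, and the GATA2 stretch, from 90 to 40 bases before it, capitals mark the KLF motif, CCNCNCCC on either strand, and matches that overlap run together.
KLF1, chr19:12887222-12887321, minus strand: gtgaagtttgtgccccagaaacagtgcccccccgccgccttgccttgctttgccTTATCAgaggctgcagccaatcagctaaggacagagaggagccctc
TAL1, chr1:47232356-47232455, minus strand: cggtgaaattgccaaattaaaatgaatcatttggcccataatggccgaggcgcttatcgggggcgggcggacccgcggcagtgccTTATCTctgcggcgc
GATA1, chrX:48786440-48786509, plus strand: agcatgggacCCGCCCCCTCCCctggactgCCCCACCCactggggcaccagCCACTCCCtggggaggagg
GATA2, chr3:128493241-128493291, minus strand: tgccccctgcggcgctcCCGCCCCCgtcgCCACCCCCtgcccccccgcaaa

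Of the 8 promoters, each a window of 300 bases with 250 before the start, 2 held a GATA motif, those of KLF1 and TAL1, against 16.6% of 27303 promoters searched. The motif lay 66 to 61 bases before the KLF1 start and 35 to 30 bases before the TAL1 start. The KLF1 promoter was also the 1 of 8 with the paired arrangement of an E-box stub and a GATA core, CTG followed after 7 to 9 bases by GATA, which 5.67% of all promoters held; 1 of its matches overlaps the GATA motif shown. The KLF motif was found in 6 of 8 member promoters, LDB1, ZFPM1 and CBFA2T3 among them, and in 55.1% of all promoters. An E-box, CANNTG, was found in 4 of 8 and in 68.9% of all. A loose form of the NF-E2 motif, TGANTCA with any middle base, was found in 1 of 8, that of TAL1, and in 7.76% of all. The TAL1 match was TGAATCA, with A in the middle. Only 1 start per gene was searched. For LDB1, ZFPM1 and CBFA2T3 that start lay inside the gene's RefSeq span, not at its outer end. All motifs are matches of letters, not measured binding.

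The libraries held 15404944 to 29236703 fragment counts in K562 and 12151495 to 12811688 read counts in HEL. The lowest member count was 250, for ZFPM1 in HEL, so none of the 10 was near the 3 counts taken as the detection floor. As a check of the labels, DOT1L was at 263 ± 9.83 CPM (counts relative to the library total, after scaling; SD, n = 2) in K562 control and 182 ± 5.15 (n = 3) in DOT1L KO libraries, so counts over the gene persisted in the knockout. A count over all exons does not test a small deletion, and DOT1L exons share 661 bases with PLEKHJ1 on the opposite strand, whose reads cannot be told apart if strand was not used in counting. MLLT1 was at 216 ± 3.56 CPM in control and 154 ± 1.92 in ENL KO. DOT1L was at 92.4 ± 7.11 CPM in HEL control and 29.5 ± 0.640 in knockdown libraries. Over the K562 control libraries the 28 erythroid target genes listed for this work summed to 7105 to 7604 CPM, and in HEL control to 8588 to 8666 CPM.

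Members were compared with each other only per length, as CPM per kilobase of exon (RPKM). GATA1 had the highest level in K562 control, at 185 ± 6.79 RPKM (SD, n = 2), followed by NFE2 at 163 ± 0.910, GATA2 at 136 ± 11.1 and KLF1 at 121 ± 4.50. LDB1 at 79.7 ± 1.56, CBFA2T3 at 61.0 ± 4.42, GFI1B at 43.6 ± 0.537, LMO2 at 34.9 ± 1.53, ZFPM1 at 25.2 ± 1.59 and TAL1 at 22.9 ± 0.445 came below. No neighbours in this order overlapped in range. In DOT1L KO libraries GATA1 stayed first at 280 ± 7.25 RPKM (n = 3), NFE2 and KLF1 overlapped, GATA2 stood at 84.1 ± 4.25 behind LDB1, and LMO2 was last at 23.6 ± 2.41. In ENL KO libraries the order began GATA1, KLF1, NFE2, the levels of LDB1, GFI1B and GATA2 overlapped between neighbours, as did those of ZFPM1 and LMO2, and TAL1 was last at 25.7 ± 0.633 RPKM.

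Levels in HEL come from a separate table and are set beside those of K562 with no test. TAL1 was at 106 ± 0.998 RPKM (n = 2) in HEL control, the fifth of the 10, against 22.9 ± 0.445 in K562 control, where it was last. ZFPM1 was last in HEL control, at 6.22 ± 0.150 RPKM against 25.2 ± 1.59 in K562 control. GATA1 at 206 ± 1.50 and NFE2 at 202 ± 6.72 RPKM overlapped at the top, and GATA2 followed at 184 ± 0.541. In the knockdown NFE2 stood first at 225 ± 0.0314 RPKM and GATA1 second at 198 ± 7.10, and TAL1 and LDB1 overlapped.

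**Figure D1:**
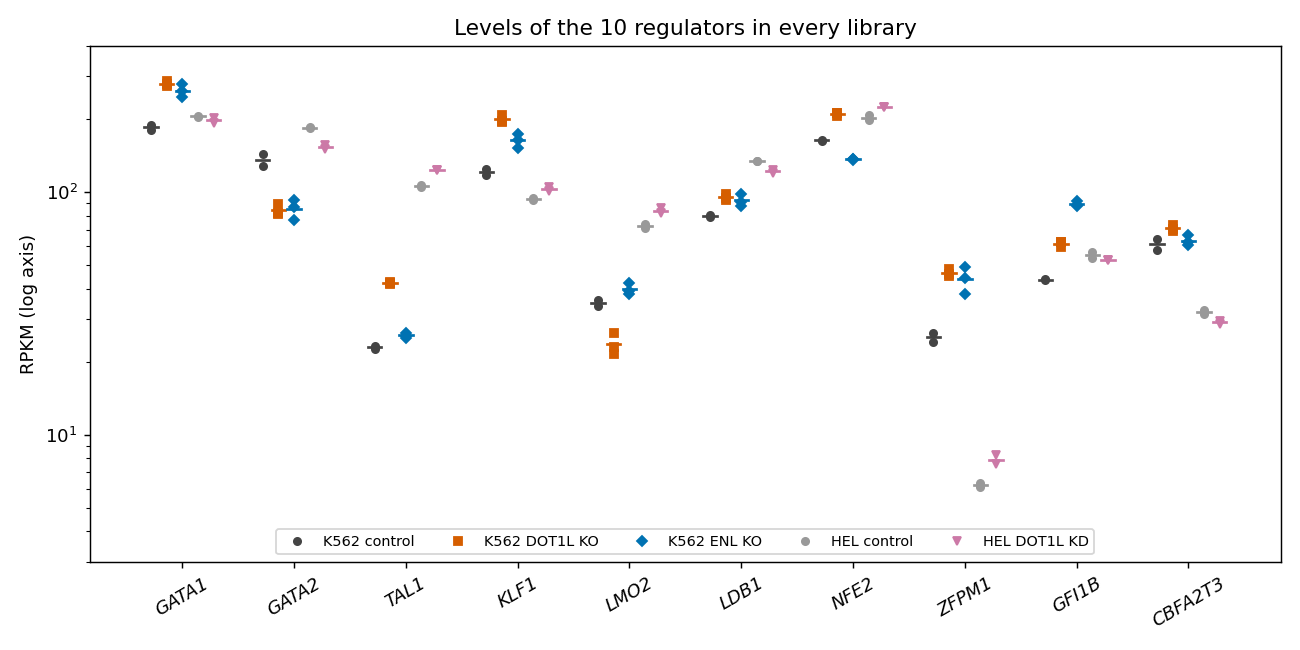
Level of each of the 10 regulators in every distinct library, in RPKM on a log axis, with libraries as points and group means as short lines (K562 control n = 2, DOT1L KO n = 3, ENL KO n = 3, each HEL group n = 2). GATA2 is lower in both K562 knockouts than in control, TAL1 in K562 is highest in DOT1L KO libraries, and ZFPM1 is the lowest of the 10 in HEL.

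The first comparison asked how the regulators stood in K562 cells without DOT1L. GATA1, TAL1, KLF1, LDB1, NFE2, ZFPM1, GFI1B and CBFA2T3 rose and GATA2 and LMO2 fell, by 1.16 to 1.84 times for the rises. All 10 passed an adjusted p of 0.05 by edgeR's quasi-likelihood test, 8 higher and 2 lower, and all 10 had groups that did not overlap. Of all 14301 genes tested, 51.1% were called, 26.9% higher and 24.2% lower, and 68.1% had groups that did not overlap. The median log2 fold change was 0.43 over the members and 0.01 over all genes tested. The scaling of libraries sets the typical gene near 0. All changes here are thus relative, and a shift of all RNA together could not be seen. In bulk RNA fewer cells of a type and less RNA per cell cannot be told apart.

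Of the GATA factors, GATA1 was at 280 and 266 CPM in the K562 control libraries and at 426, 411 and 405 CPM in the DOT1L KO libraries. Every knockout library lay above both controls, and the log2 fold change was 0.60 (adjusted p = 2.43e-06, edgeR, SE 0.061). GATA2 was at 542 and 483 CPM in control and at 335, 306 and 309 CPM in DOT1L KO. Every knockout library was below both controls, and GATA2 fell by 0.70 on the log2 scale (adjusted p = 5.03e-06, edgeR, SE 0.076).

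TAL1, the DNA-binding partner of GATA1, was at 115 and 119 CPM in control and at 214, 217 and 216 CPM in DOT1L KO, a nearly constant level across the knockout libraries. Its log2 fold change of 0.88 (adjusted p = 1.36e-08, edgeR, SE 0.053) was the largest of the 10, with that of ZFPM1 beside it. LMO2, the bridging protein of the same complex, went the other way, from 87.1 and 81.8 CPM to 63.4, 55.5 and 52.0 CPM. LMO2 fell by 0.57 on the log2 scale (adjusted p = 5.17e-05, edgeR, SE 0.080). LDB1, the dimerising subunit, was at 304 and 296 CPM in control and at 369, 348 and 356 CPM in the knockout, a rise of 0.25 (adjusted p = 0.00244, edgeR, SE 0.058). The members of 1 complex thus did not move as a block: TAL1 and LDB1 were higher and LMO2 lower in the same libraries.

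KLF1, the activator of the adult beta-globin gene, was at 201 and 190 CPM in control and at 337, 313 and 316 CPM in DOT1L KO, a log2 fold change of 0.72 (adjusted p = 7.30e-07, edgeR, SE 0.065). NFE2, the haematopoietic subunit of the NF-E2 dimer, was at 333 and 335 CPM in control and at 436, 433 and 423 CPM in the knockout, a log2 fold change of 0.37 (adjusted p = 2.62e-05, edgeR, SE 0.048). In both genes the groups were far apart beside the spread within them.

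Of the cofactors and repressors, ZFPM1 went from 78.0 and 85.3 CPM to 149, 146 and 156 CPM, a log2 fold change of 0.88 (adjusted p = 2.72e-06, edgeR, SE 0.090). GFI1B went from 108 and 107 CPM to 153, 153 and 146 CPM, a log2 fold change of 0.49 (adjusted p = 5.40e-06, edgeR, SE 0.054). CBFA2T3 had the smallest change, from 264 and 292 CPM to 321, 315 and 333 CPM. Its log2 fold change of 0.22 (adjusted p = 0.0100, edgeR, SE 0.062) fell to 0.14 and did not pass without K562 control replicate 1. The exons of CBFA2T3 share 182 bases with LOC101927793 on the opposite strand, and the sources used here do not say whether strand was used in counting, so its counts are uncertain to that extent. None of the other 9 members shared exonic bases with another gene.

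**Figure D2:**
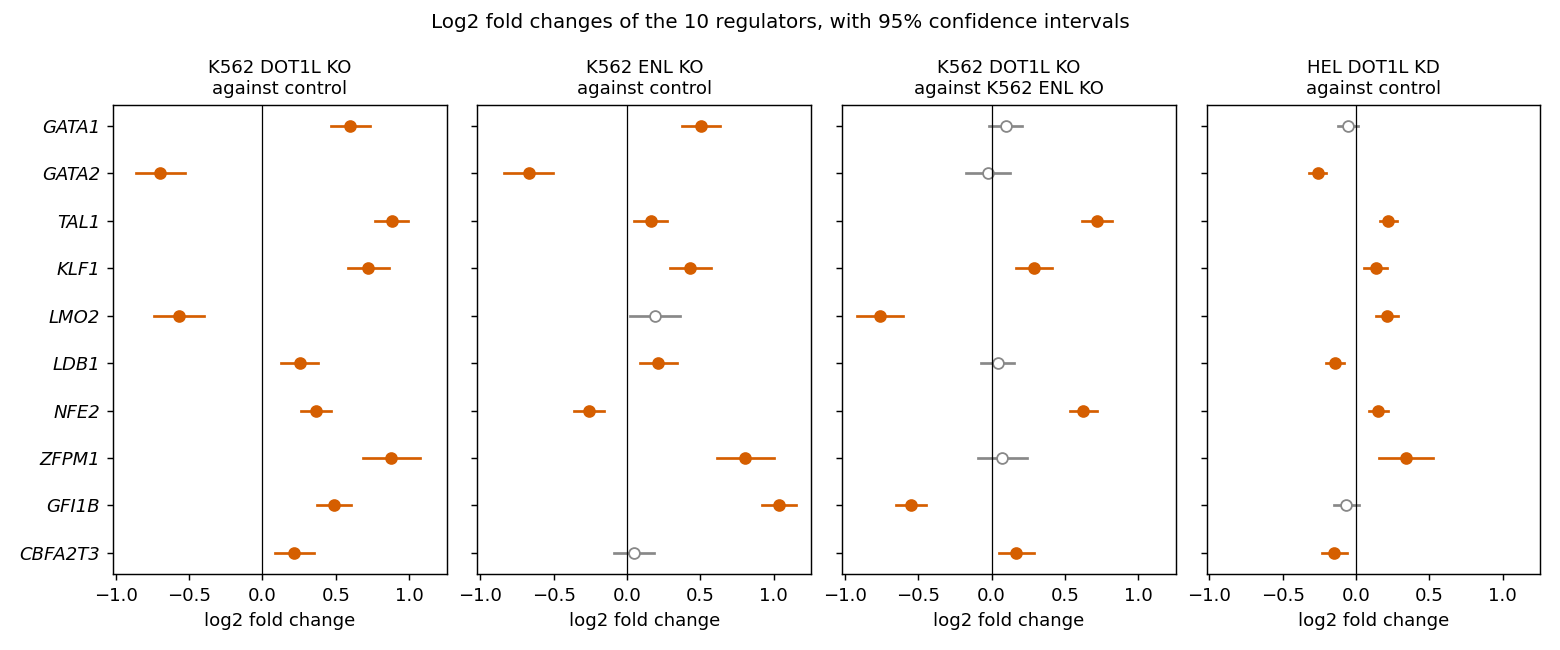
Log2 fold change (x axis) of each regulator (y axis) in 4 comparisons, with bars for 95% confidence intervals from the edgeR fits, and filled points for an adjusted p of at most 0.05. All 10 points are filled for the DOT1L KO, 8 for the ENL KO, 6 for one knockout against the other, and 8 for the HEL knockdown, where intervals lie closer to 0.

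The second comparison asked the same of K562 cells without ENL, against the same 2 control libraries. GATA1, TAL1, KLF1, LDB1, ZFPM1 and GFI1B rose, GATA2 and NFE2 fell, and LMO2 and CBFA2T3 did not pass the test. That is 8 of 10 members called, 6 higher and 2 lower, where 41.0% of all genes were called, 18.8% higher and 22.2% lower. Groups did not overlap for 9 of 10 members and for 59.6% of all genes. The members' median log2 fold change was 0.20, against 0.0028 over all genes. Since both comparisons share their controls, the values are given side by side and their likeness is not counted as a result.

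GATA1 was at 413, 387 and 363 CPM in the ENL KO libraries, all above the controls at 280 and 266 CPM, a log2 fold change of 0.50 (adjusted p = 1.88e-05, edgeR, SE 0.061). GATA2 was at 349, 326 and 290 CPM, all below the controls at 542 and 483 CPM, and fell by 0.67 on the log2 scale (adjusted p = 1.10e-05, edgeR, SE 0.076). GFI1B had the largest change of the 10, with ENL KO libraries at 219, 226 and 216 CPM against 108 and 107 CPM in control. Its log2 fold change was 1.04 (adjusted p = 6.01e-09, edgeR, SE 0.054). ZFPM1 was at 144, 160 and 124 CPM, the widest spread of any member within a K562 group in proportion to its mean, and its log2 fold change was 0.81 (adjusted p = 9.81e-06, edgeR, SE 0.091).

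KLF1 was at 280, 265 and 245 CPM in ENL KO libraries, a log2 fold change of 0.43 (adjusted p = 0.000126, edgeR, SE 0.064). NFE2 was at 281, 278 and 279 CPM, below both controls at 333 and 335 CPM, and fell by 0.26 on the log2 scale (adjusted p = 0.000664, edgeR, SE 0.047). These levels are very even, and NFE2 was the 1 member called higher in one knockout and lower in the other. LMO2 fell by 0.57 without DOT1L and had 0.19 without ENL, where it did not pass (adjusted p = 0.0736, edgeR).

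The other subunits of the GATA1 and TAL1 complex had smaller changes than GATA1 in ENL KO libraries. TAL1 was at 131, 134 and 128 CPM against 115 and 119 CPM, a log2 fold change of 0.16 (adjusted p = 0.0243, edgeR, SE 0.052) that did not pass without control replicate 1 (0.14), control replicate 2 (0.18) or ENL KO replicate 2 (0.14), nor with upper-quartile scaling (0.14), with no filter on low counts (0.16) or with only the 2 groups in the fit (0.16). LDB1 was at 370, 342 and 331 CPM, a log2 fold change of 0.21 (adjusted p = 0.00994, edgeR, SE 0.058), and did not pass without control replicate 2 (0.19). LMO2 was at 102, 94.7 and 92.2 CPM, all above the controls, with a log2 fold change of 0.19 (95% interval 0.02 to 0.36, adjusted p = 0.0736, edgeR). It passed without DOT1L KO replicate 1, which enters the shared estimate of spread, at 0.19. CBFA2T3 was at 284, 304 and 274 CPM, overlapping the controls, with a log2 fold change of 0.05 (95% interval -0.09 to 0.18, adjusted p = 0.571, edgeR).

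Setting DOT1L KO directly against ENL KO libraries, 3 of each, separated the members. TAL1, KLF1, NFE2 and CBFA2T3 were higher without DOT1L, LMO2 and GFI1B were lower, and GATA1, GATA2, LDB1 and ZFPM1 did not pass. These 6 of 10 calls, 4 higher and 2 lower, stand beside 60.2% of all genes called, 31.8% higher and 28.3% lower, and the same 6 members had groups that did not overlap, against 63.3% of all genes. At this background the share of members called is no more than that of all genes.

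The largest difference was that of LMO2, at 52.0 to 63.4 CPM in DOT1L KO and 92.2 to 102 CPM in ENL KO libraries, a log2 difference of -0.76 (adjusted p = 8.30e-07, edgeR, SE 0.073). TAL1 followed, at 214 to 217 against 128 to 134 CPM, a log2 difference of 0.72 (adjusted p = 1.37e-08, edgeR, SE 0.046). NFE2, at 423 to 436 against 278 to 281 CPM, differed by 0.62 (adjusted p = 2.60e-08, edgeR, SE 0.043). GFI1B, at 146 to 153 against 216 to 226 CPM, differed by -0.55 (adjusted p = 2.64e-07, edgeR, SE 0.047). KLF1 differed by 0.29 (adjusted p = 0.000573, SE 0.057) and CBFA2T3 by 0.17 (adjusted p = 0.0175, edgeR, SE 0.055), the latter not passing without DOT1L KO replicate 3 (0.15) or ENL KO replicate 3 (0.14). LMO2, TAL1, NFE2 and GFI1B were thus the members in which the knockouts stood farthest apart.

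Members that did not pass are given by their intervals, which do not show that levels were alike. The 95% interval of the log2 difference was -0.02 to 0.21 for GATA1, -0.17 to 0.12 for GATA2, -0.07 to 0.15 for LDB1 and -0.09 to 0.24 for ZFPM1. Adjusted p-values by edgeR were 0.142, 0.780, 0.514 and 0.438 in that order. The GATA1 difference of 0.10 passed without ENL KO replicate 1, at 0.14, and also with library size as the only scaling, at 0.15.

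In HEL cells with DOT1L knocked down, 2 libraries against 2, changes were smaller. TAL1, KLF1, LMO2, NFE2 and ZFPM1 rose by 1.10 to 1.27 times, GATA2, LDB1 and CBFA2T3 fell, and GATA1 and GFI1B did not pass. The 8 of 10 members called, 5 higher and 3 lower, stand beside 55.0% of 12635 genes called, 27.0% higher and 28.0% lower. With upper-quartile scaling the all-gene calls split as 4412 higher and 2768 lower, in place of 3411 and 3540. Groups did not overlap for all 10 members, and for 75.9% of all genes. The members' median log2 fold change was 0.04 and that of all genes 0.01.

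GATA2 was at 693 and 695 CPM in HEL control and at 568 and 589 CPM in the knockdown, and fell by 0.26 on the log2 scale (adjusted p = 4.05e-11, edgeR, SE 0.029). GATA1 was at 306 and 302 CPM in control and at 285 and 300 CPM in the knockdown, so the second knockdown library stood just under the controls. Its log2 fold change was -0.06 (95% interval -0.12 to 0.01, adjusted p = 0.144, edgeR), and 0.02 with upper-quartile scaling.

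TAL1 was at 538 and 545 CPM in control and at 629 and 630 CPM in the knockdown, a log2 fold change of 0.22 (adjusted p = 5.63e-09, edgeR, SE 0.029). LMO2 was at 172 and 178 CPM in control and at 207 and 198 CPM in the knockdown, a log2 fold change of 0.21 (adjusted p = 4.63e-06, edgeR, SE 0.038). LDB1 was at 507 and 504 CPM in control and at 465 and 452 CPM in the knockdown, and fell by 0.14 on the log2 scale (adjusted p = 6.65e-05, edgeR, SE 0.030), a call that did not hold with upper-quartile scaling (-0.07). In HEL, TAL1 and LMO2 thus both stood above control.

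KLF1 was at 152 and 150 CPM in control and at 162 and 169 CPM in the knockdown. Its log2 fold change of 0.13 (adjusted p = 0.00411, edgeR, SE 0.040) did not pass with DESeq2 (0.13) or without knockdown replicate 2 (0.10). NFE2 was at 404 and 424 CPM in control and at 460 and 460 CPM in the knockdown, a log2 fold change of 0.15 (adjusted p = 3.52e-05, edgeR, SE 0.031). For each gene both knockdown libraries lay above both controls.

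ZFPM1 was at 20.5 and 19.8 CPM in control and at 24.5 and 26.7 CPM in the knockdown, from 250 to 328 counts a library. Its log2 fold change of 0.34 (adjusted p = 0.00150, edgeR, SE 0.092) was the largest of the members in HEL and the least precise, and it did not pass with DESeq2 (0.34). CBFA2T3 was at 149 and 144 CPM in control and at 130 and 135 CPM in the knockdown, and fell by 0.15 on the log2 scale (adjusted p = 0.00216, edgeR, SE 0.042), but not past the threshold with upper-quartile scaling (-0.08). GFI1B was at 132 and 139 CPM in control and at 130 and 130 CPM in the knockdown, with a log2 fold change of -0.07 (95% interval -0.15 to 0.02, adjusted p = 0.185, edgeR) that was 0.0069 with upper-quartile scaling.

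The response to less DOT1L was then compared between the lines in 1 fit of the 9 libraries concerned, as the log2 fold change in HEL minus that in K562. One line had a knockout and the other a knockdown, and the tables counted fragments and reads, so line, method and table cannot be told apart. The difference passed for all 10 members, 2 higher and 8 lower, where 38.9% of 15367 genes passed, 19.8% higher and 19.1% lower. LMO2 had the largest difference, 0.80 (adjusted p = 1.08e-06, edgeR, SE 0.097), having fallen in K562 and risen in HEL. GATA2 differed by 0.45 (adjusted p = 0.000121, edgeR, SE 0.081), with a smaller fall in HEL. TAL1 differed by -0.64 (adjusted p = 8.14e-08, edgeR, SE 0.065) and GATA1 by -0.64 (adjusted p = 3.50e-07, edgeR, SE 0.072). The difference for NFE2 was -0.19 (adjusted p = 0.0229, edgeR, SE 0.066) and did not pass without K562 control replicate 1 (-0.17) or 2 (-0.19), HEL control replicate 2 (-0.16), or HEL knockdown replicate 1 (-0.19) or 2 (-0.19).

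The balance of the GATA factors was summarised as the ratio of GATA1 to GATA2 per length within a library, which does not depend on library scaling. The ratio was 1.32 and 1.40 in the K562 control libraries, 3.24, 3.42 and 3.34 in DOT1L KO and 3.01, 3.02 and 3.19 in ENL KO libraries. In HEL it was 1.12 and 1.11 in control and 1.28 and 1.29 in the knockdown. GATA1 exceeded GATA2 in all 12 distinct libraries, and no compared groups overlapped. The log2 ratio was 0.44 ± 0.065 (SD, n = 2) in control and 1.74 ± 0.039 (n = 3) without DOT1L, a difference of 1.29. It was 1.62 ± 0.047 without ENL, a difference of 1.18 from control. In HEL it was 0.16 ± 0.015 in control and 0.36 ± 0.014 in the knockdown, a difference of 0.21. The exact two-sided permutation p was 0.1 in each K562 comparison and 0.333 in HEL, the smallest these group sizes allow, so no threshold of 0.05 could be reached.

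**Figure D3:**
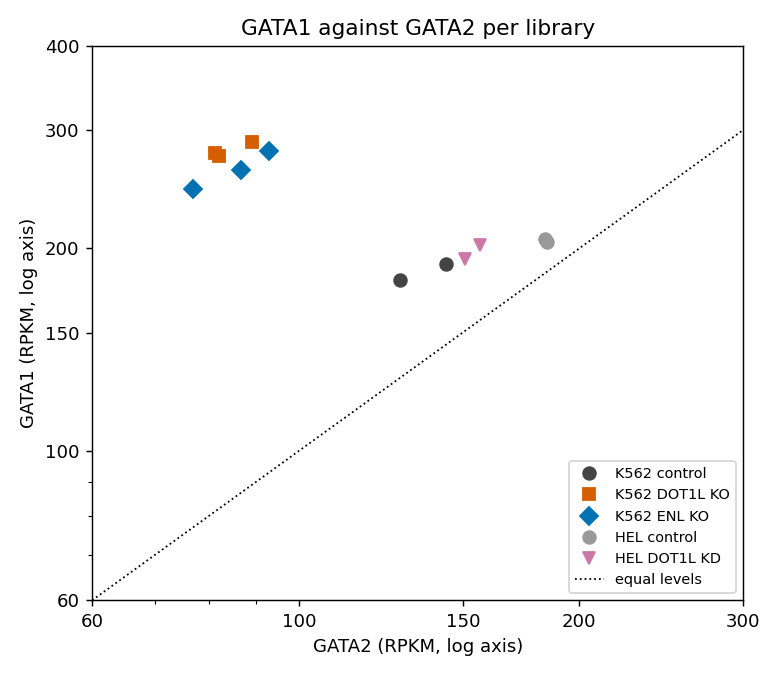
GATA1 (y axis) against GATA2 (x axis) in each distinct library, in RPKM on log axes, with a dotted line where both levels are equal. The K562 knockout libraries lie at ratios from 3.01 to 3.42, apart from the K562 control libraries at 1.32 and 1.40 and from all HEL libraries, which lie between 1.11 and 1.29.

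The genes these regulators are known to activate were followed in a list of 28 erythroid genes. This and the other gene lists were also drawn up with earlier results of these data known, so their shares of calls are descriptions. In DOT1L KO libraries 23 of 27 tested rose and 0 fell, with a median log2 fold change of 0.92, beside 26.9% of all genes higher and 24.2% lower. ALAS2, the first enzyme of erythroid haem synthesis, went from 55.6 ± 4.45 CPM (SD, n = 2) to 355 ± 7.36 (n = 3), a log2 fold change of 2.67 (adjusted p = 8.98e-12, edgeR). SLC4A1, the anion exchanger of the red cell membrane, went from 33.1 ± 0.231 to 206 ± 2.04 CPM, a log2 fold change of 2.64 (adjusted p = 9.93e-12, edgeR). GYPB, a glycophorin of a family of close copies, so that its counts are uncertain, had a log2 fold change of 2.46 (adjusted p = 5.33e-09, edgeR). The 4 that did not pass were GYPC, BCL2L1, RHAG and E2F2, named after their values were seen.

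In ENL KO libraries 16 of the same 27 rose and 2 fell, with a median of 0.23, beside 18.8% of all genes higher and 22.2% lower. Of these 18 calls, 11 were of at least 0.5 on the log2 scale. AHSP, the chaperone of alpha-globin, went from 3.78 ± 0.741 to 33.3 ± 4.43 CPM, a log2 fold change of 3.14 (adjusted p = 6.92e-09, edgeR). SLC4A1 rose by 2.37 and ALAS2 by 1.51 on the log2 scale (adjusted p = 2.60e-11 and 5.76e-10, edgeR). The 2 that fell were BCAM (-1.98), the Lutheran glycoprotein, and EPB42 (-0.50), a membrane skeleton protein, both named after their values were seen.
Against ENL KO, 19 of the 27 were higher in DOT1L KO libraries and 5 lower, beside 31.8% of all genes higher and 28.3% lower. Of these calls, 13 were of at least 0.5 on the log2 scale. The median was 0.35, and BCAM stood at 3.07 and GYPB at 1.99 (adjusted p = 8.23e-11 and 3.66e-09, edgeR).

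In the HEL knockdown 17 of 26 erythroid genes rose and 5 fell, with a median of 0.28, beside 27.0% of all genes higher and 28.0% lower. Of these 22 calls, 11 were of at least 0.5 on the log2 scale. HBZ, the embryonic alpha-like globin, had a log2 fold change of 2.82 and HBA2 one of 2.57 (adjusted p = 9.25e-25 and 4.33e-39, edgeR), though HBA1 and HBA2 are near-identical copies whose reads may be split. AHSP had 0 and 1 counts in the HEL control libraries and up to 55 in the knockdown, so no fold is given for it.

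Genes known to be silenced as GATA1 replaces GATA2 formed a list of 11, in which KIT, the stem cell factor receptor, differed most between the K562 knockouts. KIT was at 15.9 ± 0.722 CPM in K562 control, 49.0 ± 2.47 in DOT1L KO and 1.61 ± 0.453 in ENL KO libraries. KIT rose by 1.63 without DOT1L and fell by 3.26 without ENL on the log2 scale (adjusted p = 2.55e-08 and 1.64e-09, edgeR), and the direct difference was 4.88 (adjusted p = 2.48e-12). In HEL it went from 460 ± 9.06 to 210.0 ± 3.34 CPM and fell by 1.13 (adjusted p = 1.12e-33, edgeR).
Of the 10 tested in K562, 4 rose and 4 fell without DOT1L (median 0.01), where 51.1% of all genes were called. Without ENL, 0 rose and 6 fell (median -0.63), where 41.0% of all genes were called. HHEX, a homeobox factor, fell by 1.08 and SPI1, the myeloid factor PU.1, rose by 0.95 without DOT1L (adjusted p = 6.62e-09 and 4.58e-05, edgeR). Without ENL, SPI1 fell by 1.13 and VAV1, a signalling protein of blood cells, by 1.18 (adjusted p = 3.12e-05 and 1.88e-06, edgeR). In HEL 1 of 11 rose and 8 fell (median -0.30), where 55.0% of all genes were called. Of these 9, 4 were of at least 0.5, among them RGS18 (-1.82), a regulator of G-protein signalling, and MYB (-0.87), a progenitor factor (adjusted p = 1.07e-39 and 3.50e-26, edgeR). RGS18 went the other way in K562 without DOT1L, where it rose by 2.70 (adjusted p = 0.000755, edgeR). There it was left out by the 5 CPM limit, and it is named after its values were seen. Its response differed between HEL and K562 by -4.51 (adjusted p = 1.14e-08, edgeR).

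**Figure D4:**
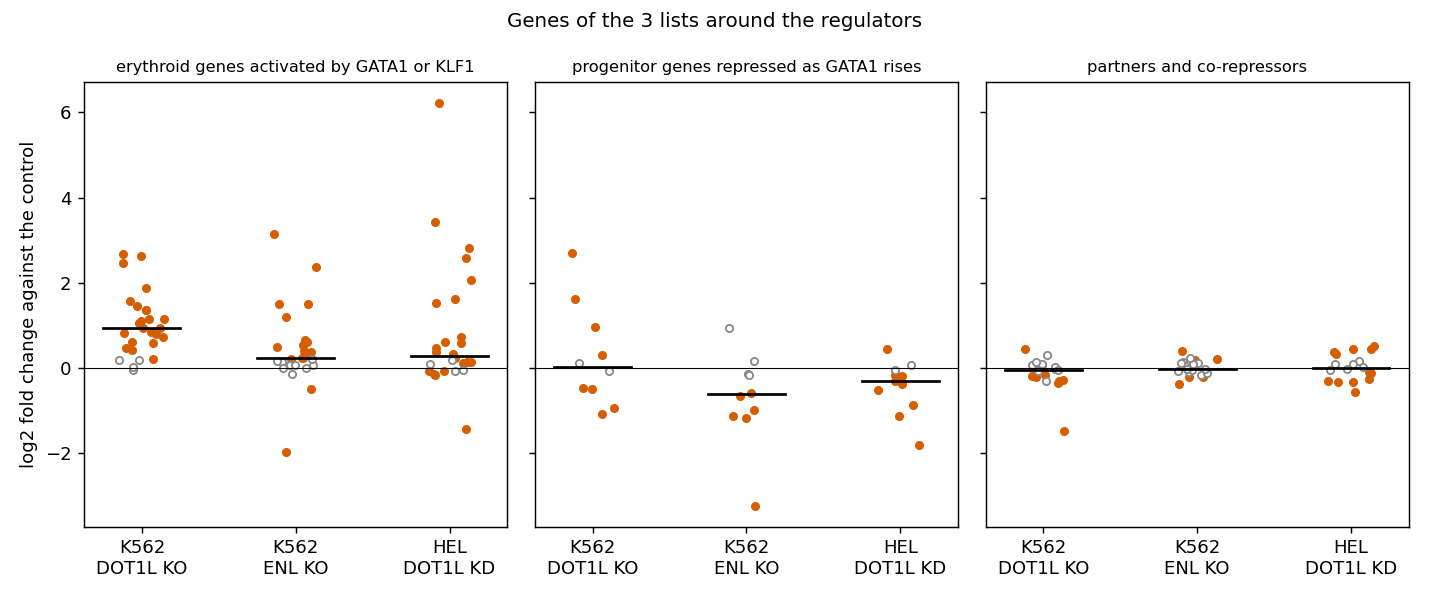
Log2 fold change (y axis) against the control of genes in 3 lists around the regulators, for the K562 DOT1L KO, K562 ENL KO and HEL DOT1L knockdown (KD on the axis), with a point per gene, filled where the adjusted p was at most 0.05, and a line at the median. Erythroid genes have a median of 0.92 in DOT1L KO libraries, and of the partner genes MAFF, at -1.49 without DOT1L, lies farthest from 0; the highest HEL point is AHSP, whose control counts were 0 and 1.

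The dimer partners, DNA-binding partners and corepressors of the members had median log2 fold changes between -0.05 and -0.01 against control. Without DOT1L, 1 of 19 rose and 7 fell, where 51.1% of all genes were called, and 1 of these 8 calls was of at least 0.5 on the log2 scale. MAFF, a small MAF partner of NFE2, fell by 1.49, RCOR1, the CoREST scaffold that GFI1B recruits, fell by 0.36, and SSBP3, a partner of LDB1, rose by 0.44 (adjusted p = 1.28e-05, 0.000120 and 9.77e-06, edgeR). Without ENL, 3 rose and 3 fell, 0 of them by at least 0.5, where 41.0% of all genes were called. MAFG, another small MAF, rose by 0.40, SSBP2 fell by 0.39 and TCF12, an E-protein partner of TAL1, fell by 0.23 (adjusted p = 0.000113, 0.00200 and 0.0377, edgeR). With replicate number as a block 10 of the 19 were called without ENL, and without K562 control replicate 2, 2 were. In the direct comparison 3 were higher and 8 lower in DOT1L KO libraries, where 60.2% of all genes were called. The 1 of these 11 past 0.5 was MAFF at -1.60. In HEL, 5 of 18 rose and 7 fell, 2 of these 12 by at least 0.5, where 55.0% of all genes were called. RCOR1 fell by 0.56, and MAFK and MAFF rose by 0.50 and 0.44 (adjusted p = 6.22e-17, 0.00245 and 5.23e-05, edgeR).

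Markers of other blood lineages moved in some of the same libraries, and their part in the results was not tested. Beside their counts stand 51.1% of all genes called without DOT1L, 41.0% without ENL and 55.0% in HEL. The 12 megakaryocyte markers summed to 20.2 to 22.1 CPM in K562 control, 53.0 to 53.8 in DOT1L KO and 119 to 129 in ENL KO libraries. TUBB1 alone made up most of the sum in control and ENL KO libraries, at means of 15.8 and 112 CPM. Of the 12, 3 were tested in K562, and ITGA2B and TUBB1 rose in both knockouts. TUBB1 rose by 2.83 without ENL and ITGA2B by 2.35 without DOT1L (adjusted p = 2.60e-11 and 6.09e-08, edgeR), while GP1BA, GP1BB, SELP and FLI1 had 0 counts in every K562 group. The 11 myeloid markers summed to 63.1 to 64.9 CPM in control, 348 to 379 in DOT1L KO and 28.1 to 34.7 in ENL KO libraries. Of 5 tested, 3 rose and 0 fell without DOT1L, and 0 rose and 4 fell without ENL. LYZ, lysozyme, rose by 3.19 without DOT1L (adjusted p = 6.70e-12, edgeR) and made up most of the sum, at 310 ± 17.1 CPM, whereas ELANE, neutrophil elastase, had 0 counts in both knockouts.
In HEL the megakaryocyte markers summed to 2543 to 2607 CPM in control and 2275 to 2324 in the knockdown, where 2 of 9 rose and 7 fell, 5 of these 9 by at least 0.5, led by PPBP (-1.94) and PF4 (-1.85), both platelet chemokines (adjusted p = 1.28e-13 and 9.20e-17, edgeR). The myeloid markers there summed to 105 to 110 CPM in control and 101 to 104 in the knockdown, with 1 of 3 higher and 1 lower, and MPO, ELANE, S100A8 and S100A9 at 0. The 8 lymphoid markers summed to 54.2 to 55.8 CPM in K562 control, 18.3 to 22.6 in DOT1L KO, 62.2 to 73.2 in ENL KO, 172 to 176 in HEL control and 143 to 146 in the knockdown, with MS4A1 at 0 in all groups. CD3D alone made up most of the K562 sums, at means of 51.9 CPM in control, 17.4 in DOT1L KO and 65.9 in ENL KO libraries. CD4 alone made up most of the HEL sums, at 166 CPM in control and 138 in the knockdown. Of 4 tested in K562, 1 rose and 2 fell without DOT1L, and 1 rose and 1 fell without ENL, of which 1 was called without either control library. Of 3 tested in HEL, 0 rose and 1 fell.

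Finally, the genes whose levels followed a regulator most closely were ranked by Pearson's r of log2 CPM over the 8 distinct K562 libraries, among 10238 genes. These libraries share 3 groups, so r mostly reflects group differences and carries no test. For GATA1 the closest were BLVRB (r = 0.996), a biliverdin reductase of red cells, PPP1R8 (0.992) and SLC2A1 (0.988), the glucose transporter of red cells. For GATA2 they were GAB2 (0.987), an adaptor of receptor signalling, TMEM120B (0.987) and MAP2K1 (0.986), a kinase of the MAPK cascade. For KLF1, ZDHHC12 (0.994) and ABCB8 (0.994) were among the closest. In HEL, which this ranking did not use, GAB2 had a log2 fold change of -0.47 in the knockdown, as GATA2 had -0.26, whereas TMEM120B had 0.29. MAP2K1 had -0.11. BLVRB had 0.46, SLC2A1 0.93 and PPP1R8 -0.18, beside -0.06 for GATA1. ZDHHC12 had 0.73 and ABCB8 -0.30, beside 0.13 for KLF1.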

How the data were processed

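RNA was measured by poly(A) RNA-seq in 13 samples of the K562 and HEL lines; the other 61 of 74 samples were left out. For K562 the authors deposited fragment counts, and for HEL read counts, as tables by gene with exonic length, per the labels and file headers. The submitters' processing notes name fastp 0.13.1, Bowtie2 2.3.4.1, HISAT2 2.1.0, deepTools, featureCounts 1.6.1, hg38 and hg19, with no role or order, and strand use in counting is not given in the sources used here. Extraction used kits of different makers, per the labels' protocols, with no record of which sample had which.

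Counts were tested with edgeR 4.0.16 in R 4.3.3 (filterByExpr with a minimum count of 10 and total of 15, TMM scaling, quasi-likelihood F test, Benjamini-Hochberg adjustment over all genes tested, adjusted p of at most 0.05). The 3 K562 groups shared 1 fit of 8 libraries, HEL had 1 of 4, and the difference in response 1 of 9. The filter kept all 10 members in each. CPM were TMM-scaled, and RPKM divided them by deposited exonic length. Standard errors are the absolute log2 fold change over the root of its F. The scripts were tested on simulated data with known changes. DESeq2 1.42.0, other scalings and filters, a replicate block and leaving out each library were alternatives. The members and lists were chosen with earlier results of these data known. Named genes are the members, the targeted genes, for each list and comparison the 3 called genes with the largest change and a mean of at least 5 CPM, and the 3 genes most like GATA1, GATA2 and KLF1 (pseudocount 0.5 CPM); some genes so named are not reported here. Depth is given as total counts, and the floor of 3 counts equals 0.103 to 0.247 CPM, for counting error only.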

Additional observations from a re-analysis of the deposited data

Results flagged for a closer look

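For all 10 regulators the response to less DOT1L differed between HEL and K562 by a test of the difference itself, edgeR's quasi-likelihood test in the joint fit of 9 libraries, with both lines' fold changes taken against their own control. The values below are the log2 fold change in HEL minus that in K562. It was -0.64 for GATA1 and 0.45 for GATA2, -0.64 for TAL1, 0.80 for LMO2 and -0.38 for LDB1. It was -0.57 for KLF1, -0.19 for NFE2, -0.52 for ZFPM1, -0.53 for GFI1B and -0.35 for CBFA2T3. The NFE2 difference did not pass in several fits without 1 library, and line, method and table cannot be told apart. LDB1 and CBFA2T3 rose in K562 and fell in HEL, LMO2 did the opposite, and GATA1 and GFI1B rose in K562 and did not pass in HEL. The HEL falls of LDB1 (-0.07) and CBFA2T3 (-0.08) did not pass with upper-quartile scaling. Of all genes tested, 38.9% passed the same test. DOT1L itself stood at 182 of 263 CPM in the K562 knockout and at 29.5 of 92.4 CPM in the HEL knockdown.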

How the results depend on the processing

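Of the members called, 6 remained past the threshold without DOT1L, 4 without ENL, 0 in HEL and 6 in the difference between lines when the call also asked for a change of 0.5 or more on the log2 scale, where the edgeR counts were 10, 8, 8 and 10. In HEL all 8 of those calls thus rest on changes under 0.5. Leaving out 1 library gave 9 to 10, 6 to 9, 7 to 8 and 9 to 10 called members. All-gene calls fell to 4087, 2999, 4689, 2454 and 3904 with the 0.5 limit, in the order DOT1L KO, ENL KO, the direct comparison, HEL and the difference, and to 4561 in HEL with DESeq2.

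Directions turned only for members that did not pass. In ENL KO, CBFA2T3 had -0.0231 without control replicate 1 and -0.000101 without ENL KO replicate 2, over a range of -0.0231 to 0.126. Between the knockouts, GATA2 had 0.0172 with upper-quartile scaling, 0.0291 with library size only, 0.00324 without DOT1L KO replicate 2 and 0.0380 without ENL KO replicate 1 (range -0.0941 to 0.038), and ZFPM1 had -0.0181 without ENL KO replicate 3 (range -0.0181 to 0.162). In HEL, GATA1 had 0.0164 and GFI1B 0.00688 with upper-quartile scaling. The cause was not tested. No member turned direction without DOT1L or in the difference between lines, over 17 alternatives each. The alternatives for the GATA1 to GATA2 ratio left out 1 library or added 0.5 RPKM to both levels. All kept its direction, but they could not have turned it. The compared groups did not overlap, and 0.5 RPKM is small beside the levels.

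With replicate number as a block, 10 members were called without DOT1L, 9 without ENL, 7 between the knockouts, 8 in HEL and 10 in the difference; LMO2 without ENL (0.23) and GATA1 between the knockouts (0.10) then passed, and no other member's call changed. Same-numbered K562 libraries correlated at 0.0684 to 0.355 and differently numbered ones at -0.281 to 0.172, though not every DOT1L KO library did so best with its own number. Same-numbered HEL libraries gave -0.00264, which cannot decide, since 2 libraries a group mirror each other. The edgeR fits without the block took the samples to share only a number, and whether K562 numbers mark a shared batch was not tested. Counting every deposited K562 column as a library, LMO2 without ENL passed (0.21). No scaling moved the median of all genes by more than 0.09 on the log2 scale, but every scaling used was relative, so a shift of all RNA together could not be seen. The effect of depth was not tested by thinning counts. HEL ZFPM1, with 250 to 328 counts, was the least precise member in HEL, and 2 libraries a group limit the control and HEL results.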

Other observations

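Paralogues of the members, 26 genes of the same families, were listed as a comparison within each family. Without DOT1L, 6 of 21 tested rose and 7 fell (median log2 fold change -0.08), where 51.1% of all genes were called. ZFPM2, the paralogue of ZFPM1, fell by 1.70 on the log2 scale (adjusted p = 7.60e-09, edgeR), from 44.8 to 13.8 CPM, in the libraries in which ZFPM1 rose by 0.88. GATA5, a GATA factor of heart and gut, rose by 1.01 and KLF13 fell by 0.61 (adjusted p = 4.87e-05 and 0.00206, edgeR). These are the largest among genes with a mean of at least 5 CPM, and 3 genes of lower level, named after their values were seen, changed by more than ZFPM2. KLF12 was at 0.164 ± 0.031 CPM (SD, n = 2; 3 and 4 counts) in control and 5.57 ± 0.469 (n = 3) without DOT1L (adjusted p = 2.20e-08, edgeR). GATA4 was at 0.212 ± 0.168 and 1.97 ± 0.602 CPM, and TAL2, the paralogue of TAL1, at 0.610 ± 0.074 and 3.45 ± 0.817 CPM (adjusted p = 0.000142 and 2.73e-05, edgeR). Without ENL, 3 of 21 rose and 5 fell (median 0.02), where 41.0% of all genes were called. Without K562 control replicate 2, 5 in all were called. KLF6 fell by 0.95, KLF3, a repressor that KLF1 activates, rose by 0.45, and NFE2L2, the stress-response paralogue of NFE2, fell by 0.28 (adjusted p = 2.09e-07, 0.00149 and 0.00527, edgeR). GFI1, the paralogue of GFI1B, was at 4.26 ± 0.280 CPM in control and 0.701 ± 0.291 without ENL, and fell by 2.59 (adjusted p = 2.73e-06, edgeR) in the libraries in which GFI1B rose by 1.04; it was named after its values were seen. Of these 8 calls, 5 were of at least 0.5 on the log2 scale. Among them KLF13, GATA6 and KLF2, left out by the 5 CPM limit and named after their values were seen, had -1.59, 1.22 and 0.85 (adjusted p = 2.15e-06, 0.00457 and 0.0494, edgeR). In HEL, 7 of 17 rose and 3 fell (median 0.22), 3 of these 10 by at least 0.5, where 55.0% of all genes were called. KLF10 rose by 0.56, KLF8 by 0.54, and KLF12 fell by 0.61 (adjusted p = 9.47e-17, 1.72e-05 and 0.000806, edgeR). KLF12 was at 9.51 ± 0.126 CPM in HEL control and 6.22 ± 0.526 in the knockdown, and its response differed between HEL and K562 (adjusted p = 4.28e-11, edgeR).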
